A study of Homo sapiens with 7 samples.

Results

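The genes described here are 10 cytokine receptors of blood cells, FLT3, CSF1R, CSF3R, CSF2RA, CSF2RB, IL6R, IL6ST, IL10RA, IL7R and IFNGR1, chosen by symbol from the 11408 genes analysed. All 10 passed the filter on low values of at least 1 CPM, a read count scaled to library size, in at least 2 libraries, as did all 11408 genes. They were followed in MOLM13, an established human acute myeloid leukemia (AML) cell line with monocytic features that carries an internal tandem duplication in one FLT3 allele. The cells were transduced either with 1 of 2 guide RNAs against ZFP36L2 or with the non-targeting guide sgRosa, and poly(A) RNA was sequenced at day 6 after transduction. Of 7 libraries, 4 are labelled ZFP36L2 knockout (KO), 2 for a guide called 3 and 2 for a guide called 5 in the deposited columns, and 3 libraries are sgRosa controls. Beyond the guide, no allele or agent that differs between the groups is given in the labels, and whether the cells were pools or clones is not given in the sources used here. Nothing states that replicates came from separate cultures, so the tests measure only the spread between these libraries, which may be technical.

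Cytokine receptors carry signals from secreted proteins into the cell and set which blood lineages survive, divide and mature. FLT3 and CSF1R are receptor tyrosine kinases, closely related in structure: FLT3 acts in early progenitors and dendritic cell precursors and is often mutated in AML, while CSF1R is the receptor through which M-CSF and IL-34 maintain monocytes and macrophages. The other members have no kinase domain of their own, and the receptor complexes they form signal through bound JAK kinases and STAT transcription factors. ZFP36L2 belongs to a family of zinc finger proteins that bind AU-rich elements in 3′ untranslated regions (3′ UTRs) of messenger RNAs and promote their decay.

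The core letters that the ZFP36 family recognises, TATTTAT in DNA letters, were searched on the sense strand of the 3′ UTR of 1 coding transcript per gene, overlapping copies included. They were present in 3 of the 10 receptors, IL10RA, IL6ST and IL7R, against 32.3% of 10640 genes with a coding transcript. IL10RA held 3 copies, a number reached or passed by 5.87% of genes, and a pair of these overlapped. The sites, with 10 bases on either side and the motif in capitals, are shown because this element is the known binding site of the targeted protein. They come from GENCODE 29 transcripts on GRCh38: IL10RA at chr11:118001169-118001195 and chr11:118001190-118001216 (plus strand), IL6ST at chr5:55938643-55938669 (minus strand) and IL7R at chr5:35878684-35878710 (plus strand).
IL10RA, first copy: ttgaaagcttTATTTATttattttgtt
IL10RA, last copy: tttgttcattTATTTATtggagaggca
IL6ST: gaaatctggtTATTTATgtaaaaacta
IL7R: ttctttgaagTATTTATtgttattttc
Of the 3 genes with the motif, IL10RA and IL7R rose and IL6ST did not pass the test; of the 7 without it, 4 rose, 2 fell and 1 did not pass. FLT3 and CSF1R each have a 3′ UTR of 778 bases with no such heptamer.

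The promoters of FLT3, CSF1R and IL10RA are also shown, since CSF1R and IL10RA had the largest changes among the 10 and FLT3 the largest fall. Promoters of 9 of the 10 genes matched by symbol in RefSeq (GRCh38.p14), with 12 start sites in all, and the 250 bases before each were searched on both strands. The core of the PU.1 site, GAGGAA, stood in 8 of these 12 promoters, belonging to 8 of the 9 genes, against 23.57% of 35116 promoters. The capitals mark that core on either strand. FLT3 is at chr13:28100577-28100826 (minus strand) with the core at position -87 from the start site. CSF1R at its second start site is at chr5:150086555-150086804 (minus strand) with a tandem pair of cores. IL10RA is at chr11:117989695-117989944 (plus strand) with the core at -20. The CSF1R and IL10RA windows lie inside the annotated gene spans, chr5:150053291-150113372 and chr11:117986348-118003037, before start sites within those genes.
FLT3: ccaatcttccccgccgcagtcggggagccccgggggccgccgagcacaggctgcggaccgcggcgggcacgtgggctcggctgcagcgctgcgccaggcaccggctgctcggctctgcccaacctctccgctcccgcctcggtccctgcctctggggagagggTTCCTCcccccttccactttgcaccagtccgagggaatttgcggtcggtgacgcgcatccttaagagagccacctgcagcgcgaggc
CSF1R: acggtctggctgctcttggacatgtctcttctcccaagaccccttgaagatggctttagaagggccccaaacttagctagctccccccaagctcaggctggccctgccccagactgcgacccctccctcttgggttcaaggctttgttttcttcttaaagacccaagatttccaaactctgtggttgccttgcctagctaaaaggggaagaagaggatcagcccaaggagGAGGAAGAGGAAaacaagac
IL10RA: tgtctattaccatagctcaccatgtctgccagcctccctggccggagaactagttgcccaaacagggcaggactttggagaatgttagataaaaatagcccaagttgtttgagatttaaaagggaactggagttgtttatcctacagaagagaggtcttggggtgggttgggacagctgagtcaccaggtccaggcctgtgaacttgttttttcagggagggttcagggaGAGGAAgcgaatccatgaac
In the same windows, the RUNX letters TGTGGT stood in the promoters of 2 genes, CSF1R and IL7R (10.98% of all promoters), and the C/EBP letters TTGCNNAA in those of 3 genes, CSF3R, IL10RA and IFNGR1 (9.05%). The AP-1 letters TGANTCA stood in 2, CSF1R and IL10RA (6.573%), the STAT letters TTCNNNGAA in none (6.567%), and the TATA letters TATAAA in 2, CSF3R and IL7R (10.72%). A run of letters is no evidence of binding.

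The guide 3 libraries held 33735298 and 38807816 reads on the listed genes and the guide 5 libraries 36556997 and 28088053, against 16907955, 25164359 and 22631858 in the sgRosa libraries. Each receptor was covered by at least 236 reads in every library. ZFP36L2, the targeted gene, averaged 977 ± 319.8 CPM in the libraries labelled KO (SD, n = 4) and 327 ± 14.4 CPM in sgRosa (n = 3), a rise of 1.52 ± 0.16 on the log2 scale (SE; limma adjusted p = 1.28e-05). Its transcript level thus does not show a loss in the libraries labelled KO, and a level over the whole gene does not show whether an edited transcript was made. Of 10 markers of myeloid blasts 8 could be analysed, among them CD33, MPO, ELANE and FLT3 itself, but not CD34 or KIT. No marker of B cells or of the erythroid and megakaryocyte lineages, out of 6 each, was among the genes analysed. Calls over all genes followed the GC content of transcripts, and corrected values are given with that result.

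FLT3 (chr13:28003274-28100592, minus strand, 97318 bases in the authors' gene length) fell. It stood at 252 and 242 CPM in the guide 3 libraries and 344 and 394 CPM in the guide 5 libraries, against 528, 620.3 and 439.6 CPM in the sgRosa libraries. All 4 libraries labelled KO were below all 3 controls, and the guide 3 libraries were the lowest. The change was -0.80 ± 0.17 on the log2 scale (SE; limma adjusted p = 0.00327), a level 1.74 times lower in the libraries labelled KO. By guide, the change was -1.08 ± 0.20 for guide 3 (adjusted p = 0.00161) and -0.51 ± 0.20 for guide 5 (adjusted p = 0.0937), so that with guide 5 alone FLT3 did not pass the threshold of 0.05. The guide 5 value passed after quantile normalization (adjusted p = 0.0463), with equal sums of CPM (0.0445), with library weights (0.0254) and without sgRosa replicate 3 (0.0385). It did not pass after correction for GC content, or with the guide 5 and sgRosa libraries fitted alone. After correction for transcript GC content, the change with both guides was -0.40. For FLT3, the authors' deposited table gives log2 values over control of -1.10 for guide 3 and -0.52 for guide 5. In bulk RNA, fewer cells that express a gene and less RNA per cell cannot be told apart.

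CSF1R (chr5:150053291-150113372, minus strand) rose, with a change as large as that of IL10RA and larger than that of the other 8 receptors. It was at 272 and 248 CPM in the guide 3 libraries and at 171 and 154 CPM in the guide 5 libraries, against 31.3, 38.1 and 43.6 CPM in the sgRosa libraries. The lowest library labelled KO was well above the highest control, and the guide 3 libraries were above the guide 5 libraries. The change was 2.44 ± 0.17 on the log2 scale, a 5.44-fold rise with a 95% confidence interval of 4.21 to 7.03 (limma adjusted p = 3.37e-07).

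CSF3R, the receptor of G-CSF and a driver of neutrophil production (chr1:36466043-36483278, minus strand), also rose. It stood at 515 and 503 CPM in the guide 3 libraries and 429 and 380.5 CPM in the guide 5 libraries, against 138, 252 and 219.5 CPM in the sgRosa libraries. The groups did not overlap, and sgRosa replicate 1 was the lowest of the controls. The rise was 1.20 ± 0.20 on the log2 scale, or 2.30-fold (limma adjusted p = 0.000741), and 0.66 after correction for GC content.

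Both chains of the GM-CSF receptor rose. CSF2RA, the alpha chain that binds GM-CSF (chrX:1268800-1310381, plus strand), was at 87.0 and 73.1 CPM with guide 3 and 70.0 and 71.5 CPM with guide 5, against 35.0, 47.4 and 37.9 CPM in sgRosa. CSF2RB, the signaling beta chain shared with the IL-3 and IL-5 receptors (chr22:36913628-36940449, plus strand), was at 69.0 and 68.4 CPM with guide 3 and 56.8 and 44.2 CPM with guide 5, against 21.5, 23.8 and 23.6 CPM in sgRosa. Neither gene had overlapping groups. The changes were 0.91 ± 0.17 for CSF2RA (limma adjusted p = 0.00165) and 1.34 ± 0.17 for CSF2RB (limma adjusted p = 7.88e-05) on the log2 scale. CSF2RA lies in the pseudoautosomal region, whose copies on X and Y are identical, and how the authors counted reads that fit both is not given in the sources used here. IL3RA, the IL-3 binding chain that pairs with CSF2RB, averaged 61.8 ± 5.74 CPM in the libraries labelled KO and 47.1 ± 4.73 CPM in sgRosa, a difference that did not pass (0.39 ± 0.16, limma adjusted p = 0.0716).

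The chains of the IL-6 receptor did not share a direction. IL6R, the chain that binds IL-6 (chr1:154405193-154469450, plus strand), was at 279 and 267 CPM with guide 3 and 248 and 224 CPM with guide 5, against 336, 444 and 352 CPM in sgRosa. All libraries labelled KO were below all controls, and the change was -0.56 ± 0.16 on the log2 scale (limma adjusted p = 0.017). Leaving out any 1 of the 4 libraries labelled KO ended the call of IL6R, with limma adjusted p of 0.0556 without guide 3 replicate 1, 0.079 without guide 3 replicate 2, 0.0571 without guide 5 replicate 1 and 0.0733 without guide 5 replicate 2. By guide, IL6R changed by -0.67 ± 0.20 with guide 5 (adjusted p = 0.0327), and with guide 3 the value of -0.46 ± 0.20 did not pass (adjusted p = 0.0794).

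IL6ST encodes gp130, the signaling chain shared by the receptors of IL-6, IL-11, LIF and oncostatin M (chr5:55935095-55994993, minus strand). It was at 31.7 and 19.4 CPM with guide 3 and 19.5 and 23.6 CPM with guide 5, against 12.7, 23.6 and 13.5 CPM in sgRosa. The groups overlapped because sgRosa replicate 2 was as high as most libraries labelled KO. The difference of 0.52 ± 0.25 on the log2 scale did not pass (limma adjusted p = 0.111; 95% confidence interval -0.02 to 1.06). Without sgRosa replicate 2 the difference was 0.79 (limma adjusted p = 0.00797). IL6ST shares 797 exonic bases with AC008914.1 on the other strand, and whether strand was used in counting is not given in the sources used here.

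IL10RA, the chain that binds the anti-inflammatory cytokine IL-10 (chr11:117986348-118003037, plus strand), rose as steeply as CSF1R. It stood at 135 and 111 CPM in the guide 3 libraries and 75.8 and 74.3 CPM in the guide 5 libraries, against 16.1, 18.1 and 17.6 CPM in the sgRosa libraries. The controls lay close together and far below every library labelled KO. The change was 2.44 ± 0.17 on the log2 scale, a 5.42-fold rise (limma adjusted p = 2.74e-07). Its partner IL10RB averaged 1.71 ± 0.135 CPM in the libraries labelled KO and 1.20 ± 0.541 CPM in sgRosa, and did not pass (0.43 ± 0.27, limma adjusted p = 0.208). It passed after correction for GC content (0.65, limma adjusted p = 0.0445) and without sgRosa replicate 2 (0.64, limma adjusted p = 0.0496). On the same strand IL10RB shares 1732 exonic bases with AP000295.1, and how reads that fit both were counted is not given in the sources used here. The low level of IL10RB may depend on that counting.

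IL7R, the alpha chain of the receptors for IL-7 and TSLP, is best known from lymphocytes and is also made by monocytes (chr5:35852695-35879603, plus strand). It was at 51.9 and 36.5 CPM with guide 3 and 50.1 and 63.6 CPM with guide 5, against 26.9, 28.8 and 21.6 CPM in sgRosa. The groups did not overlap, and the rise was 0.94 ± 0.20 on the log2 scale, or 1.92-fold (limma adjusted p = 0.00277). CRLF2, which pairs with IL7R in the TSLP receptor, was at 1.23 to 1.92 CPM in the libraries labelled KO and 0 to 0.205 CPM in sgRosa (limma adjusted p = 0.000112), a level at which the fitted size of the change depends on the 0.5 CPM added before taking logs. CRLF2 and IL3RA lie in the same pseudoautosomal region as CSF2RA. Of 8 T cell markers 2 could be analysed, CD3D, which fell, and CD4, which monocytes also express and which rose, with a summed level of 243 to 349 CPM in the libraries labelled KO and 154 to 191 CPM in sgRosa. The part of such cells in the IL7R result was not tested.

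IFNGR1, the chain that binds interferon gamma (chr6:137197484-137219449, minus strand), was at 182 and 141 CPM with guide 3 and 127 and 153 CPM with guide 5, against 121, 145 and 104 CPM in sgRosa. The groups overlapped, and the difference of 0.29 ± 0.18 on the log2 scale did not pass (limma adjusted p = 0.209; 95% confidence interval -0.10 to 0.68). Without sgRosa replicate 2 it was 0.41 (limma adjusted p = 0.040). The other chain of that receptor, IFNGR2, rose to 144 ± 15.8 CPM in the libraries labelled KO, against 65.5 ± 8.69 CPM in sgRosa (1.13 ± 0.16, limma adjusted p = 0.000207), and shares 380 exonic bases with TMEM50B on the other strand.

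**Figure D1:**
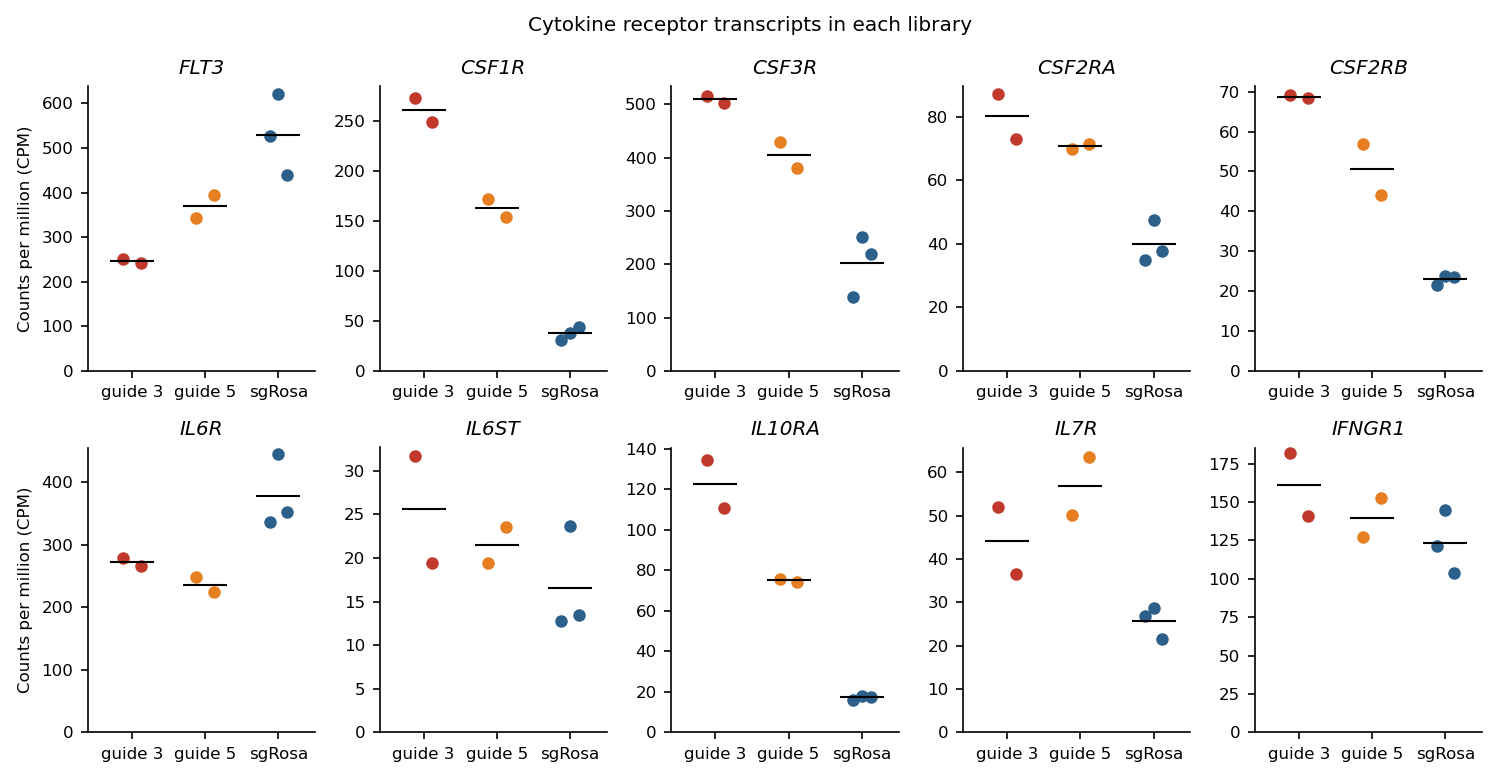
CPM of each receptor gene (vertical axis, from 0, with its own scale per gene) in the 2 guide 3, 2 guide 5 and 3 sgRosa libraries; points are libraries and bars are group means. FLT3 and IL6R are lower in all 4 guide libraries than in all 3 sgRosa libraries, 6 genes are higher, and IL6ST and IFNGR1 overlap.

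In all, 6 of the 10 receptors rose, 2 fell and 2 did not pass, where 20.9% of all 11408 genes rose and 20.6% fell. The median change of the 10 was 0.93 on the log2 scale, beside -0.05 for all genes. All 4 libraries labelled KO were above all 3 sgRosa libraries for 6 receptors and below them for 2, where this held for 19.8% and 23.7% of all genes. With guide 3 alone, 6 rose and 1 fell (21.2% and 18.9% of all genes); with guide 5 alone, also 6 rose and 1 fell (12.2% and 7.68%). Both comparisons share the sgRosa libraries. The gene that fell was FLT3 with guide 3 and IL6R with guide 5.

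Set against each other, guide 5 and guide 3 did not differ past adjustment for any of the 10 receptors in either direction (0.351% of all genes were higher and 0.0614% lower with guide 5). At an unadjusted p under 0.05, 3 of the 10 receptors differed, where 1166 of all 11408 genes did: FLT3 was higher with guide 5 by 0.57 (95% confidence interval 0.09 to 1.06, limma adjusted p = 0.415), CSF1R was lower by 0.68 on the log2 scale (-1.16 to -0.20, adjusted p = 0.332) and IL10RA was lower by 0.70 (-1.17 to -0.23, adjusted p = 0.294). This count depends on how the spread is estimated. With the 4 guide libraries fitted alone, FLT3 (limma adjusted p = 0.0107), CSF1R (0.00456) and IL10RA (0.00571) passed, and with library weights CSF2RB did so too.

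**Figure D2:**
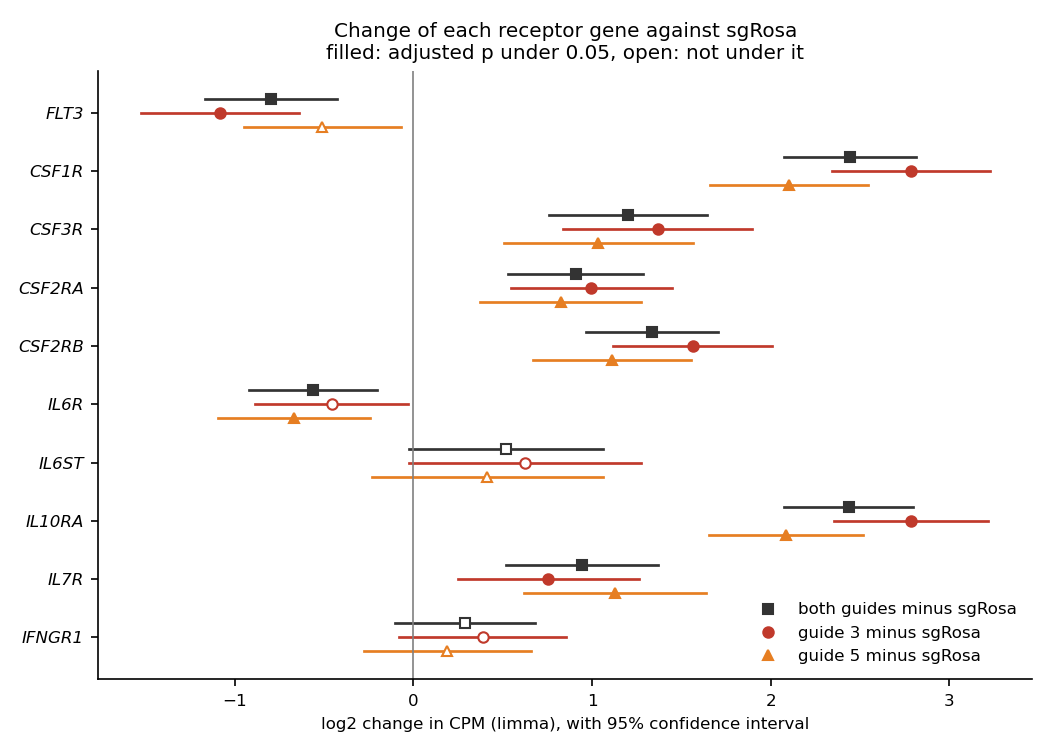
Change of each receptor gene on the log2 scale (horizontal axis) with its 95% confidence interval, for both guides together (squares), guide 3 (circles) and guide 5 (triangles) minus sgRosa; filled symbols have a limma adjusted p under 0.05. FLT3 and IL6R lie below 0 and CSF1R and IL10RA lie above 2 for both guides.

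Levels were compared between genes as CPM per kilobase of exonic length, taken over the exons of all annotated transcripts of a gene. That length is 4159 bases for FLT3, 8429 for CSF3R and 8102 for IL10RA, and the order of genes depends on it. In CPM alone, CSF3R averaged 457 and FLT3 308 in the libraries labelled KO. By group mean on the exonic scale FLT3 was the most abundant of the 10. It stood at 74.1 ± 17.7 in the libraries labelled KO (SD, n = 4) and 127 ± 21.7 in sgRosa (n = 3). In the libraries labelled KO it was followed by CSF3R (54.2 ± 7.54), IFNGR1 (45.9 ± 7.09), CSF1R (41.0 ± 11.2) and IL6R (39.4 ± 3.67), and each of these overlapped its neighbour in the order. CSF2RA, IL10RA, CSF2RB, IL7R and IL6ST came after them, with overlap between IL10RA and CSF2RB and between CSF2RB and IL7R. In sgRosa the order after FLT3 was IL6R (58.5 ± 9.06), IFNGR1 (37.6 ± 6.27), CSF3R (24.1 ± 6.97), CSF2RA (10.5 ± 1.69), CSF1R (7.32 ± 1.20), CSF2RB, IL7R, IL10RA and IL6ST, and among these neighbours only CSF2RB with IL7R and IL10RA with IL6ST overlapped. The guides differed in this order: with guide 3, CSF3R (60.4) stood just above FLT3 (59.4) and CSF1R ranked 3, while with guide 5 FLT3 was first and CSF1R ranked 5. In sgRosa CSF1R ranked 6. Per kilobase of the whole gene span, the scale of the deposited FPKM, FLT3 ranked 6 in the libraries labelled KO and 4 in sgRosa, and CSF3R ranked 1 in both.

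FLT3 made up 17.9% and 19.1% of the summed level of the 10 receptors in the guide 3 libraries and 28.2% and 31.5% in the guide 5 libraries, against 48.9%, 45.7% and 42.6% in the sgRosa libraries. The groups did not overlap. The CSF1R level was 82.8% to 87.3% of the FLT3 level in the guide 3 libraries and 31.4% to 40.2% in the guide 5 libraries, against 4.79% to 8.01% in sgRosa. The CSF3R level reached 101% to 102% of the FLT3 level with guide 3 and 47.6% to 61.6% with guide 5, against 12.9% to 24.6% in sgRosa. Among paired chains, CSF2RB stood at 47.3% to 71.7% of CSF2RA in the libraries labelled KO and 38.5% to 47.7% in sgRosa, which overlap, while IL6R was 12.7 to 19.7 times the level of IL6ST in the libraries labelled KO and 27.1 to 38.0 times in sgRosa, which do not. These levels assume that reads fell within annotated exons, and shares and ratios between genes depend on the exonic length used. They are descriptions of genes already reported above, with no further test.

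**Figure D3:**
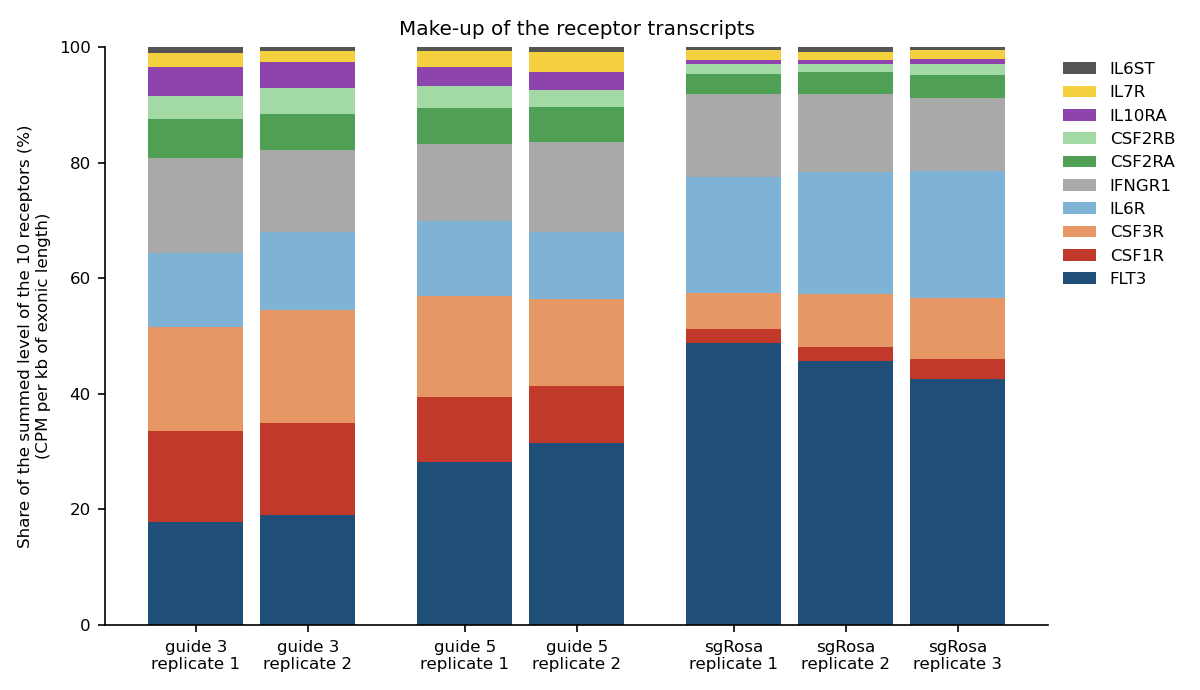
Share of each receptor in the summed level of the 10 (vertical axis, percent, from CPM per kilobase of exonic length) in each library; each bar is a library and sums to 100. FLT3 takes 17.9% to 31.5% of the bar in the guide libraries and 42.6% to 48.9% in the sgRosa libraries, and the CSF1R share is larger in every guide library than in any sgRosa library.

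Calls over all genes followed transcript GC content. In decile 1, the genes of lowest GC, 3.68% of genes rose and 49.3% fell, and in decile 10 it was 55.0% and 0.438%. IL6ST (36.6% GC) lies in decile 1, IFNGR1 (40.5%) in decile 2, where 49.3% and 44.8% of genes fell, and FLT3 (43.1%) and IL7R (41.2%) in decile 3, where 40.5% of genes fell. CSF2RA (48.9%) and IL6R (51.8%) lie in decile 6, CSF1R, CSF2RB and IL10RA (57.3%, 55.5% and 56.0%) in decile 8, where 34.8% of genes rose, and CSF3R (60.9%) in decile 9, where 45.7% rose. After each library was corrected for a smooth trend on GC content and exonic length, 8 of the 10 receptors rose and 2 fell (22.2% and 18.7% of all genes). The correction takes out any change that follows GC content or length, whether it arose in the cells or in the preparation of the libraries. Where the trend arose was not tested, so corrected values are not taken as truer than uncorrected ones.

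With this correction FLT3 changed by -0.40 (limma adjusted p = 0.00347) and IL6R by -0.57 (adjusted p = 0.000413). With guide 5 alone the corrected FLT3 value was -0.18 (adjusted p = 0.171). CSF3R rose by 0.66 (adjusted p = 0.0101), CSF1R by 2.11 (adjusted p = 1.06e-06), IL10RA by 2.15 (adjusted p = 2.49e-06) and IL7R by 1.40 (adjusted p = 5.51e-05). IL6ST at 1.05 (adjusted p = 0.00102) and IFNGR1 at 0.77 (adjusted p = 0.000153) passed after the correction and not before it. The FLT3 and CSF3R changes were thus more than 1.5 times smaller after the correction, in the same direction.

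**Figure D4:**
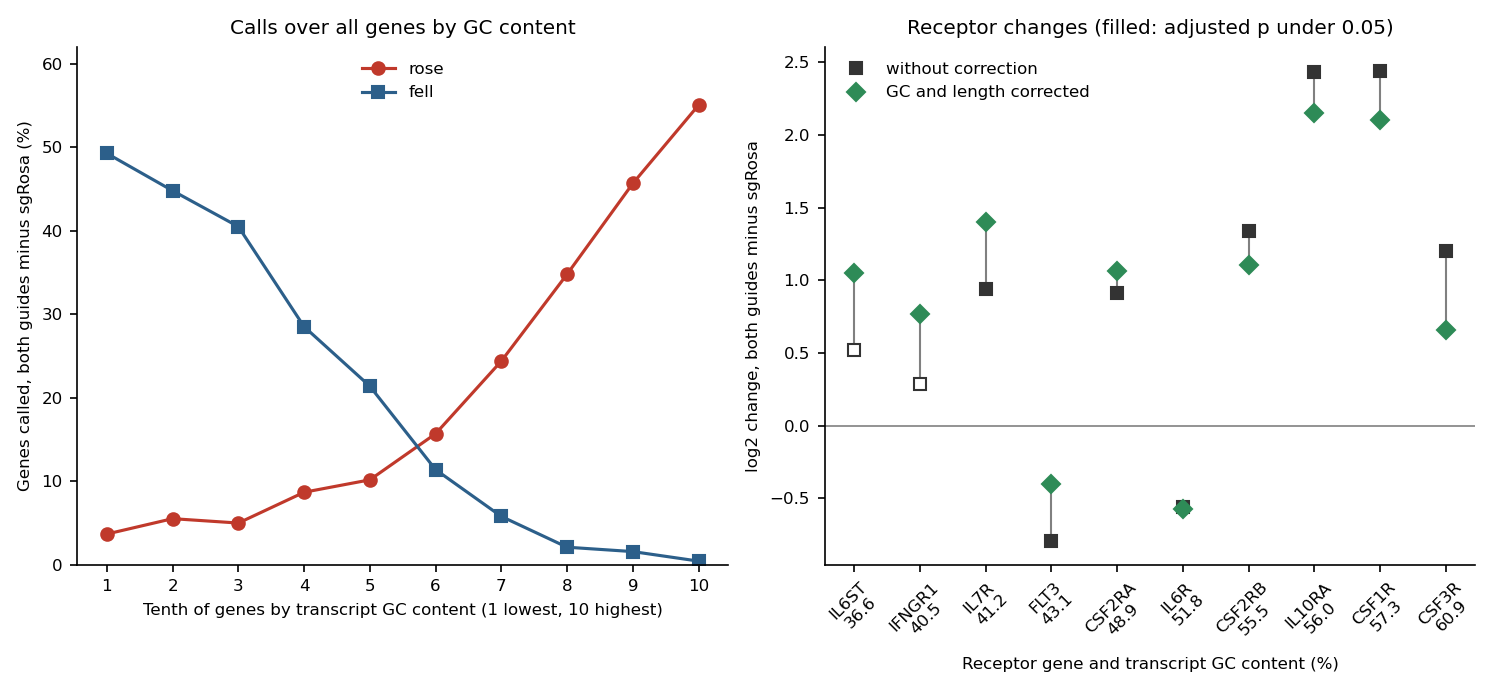
Left, percent of all genes that rose (circles) or fell (squares) in the 4 guide libraries against sgRosa, by decile of transcript GC content; right, log2 change of each receptor in order of GC content, before (squares) and after (diamonds) correction for GC content and length, filled where the limma adjusted p is under 0.05. The share that rose is 3.68% in decile 1 and 55.0% in decile 10, and the symbols of IL6ST and IFNGR1 are filled after the correction and open before it.

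The genes whose pattern over the 7 libraries was closest to that of FLT3, by root mean square difference of log2 levels centred on sgRosa, were ALKBH8 (0.055), PRKD3 (0.061) and DCLRE1A (0.062), which fell by 0.80, 0.78 and 0.80 on the log2 scale (limma adjusted p = 0.00512, 0.00517 and 0.00483). Those closest to CSF1R were TMEM176A (0.047), THEMIS2 (0.066) and TP53INP2 (0.081), with changes of 2.47, 2.41 and 2.48 (limma adjusted p = 3.51e-06, 3.74e-07 and 1.53e-06).

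Among 10 markers of monocytes, 9 could be analysed and 9 rose, where 20.9% of all genes rose. Their summed level was 10499 to 20984 CPM in the libraries labelled KO and 4131 to 7055 CPM in sgRosa, most of it LYZ. CSF1R is itself on that list, and LYZ is on this one and on the blast list. CD14, a coreceptor for lipopolysaccharide, was at 181 and 160.1 CPM with guide 3 and 90.3 and 69.9 CPM with guide 5, against 1.46, 0.514 and 2.29 CPM in sgRosa. Of the 8 blast markers analysed 3 rose and 3 fell (20.9% and 20.6% of all genes). The summed level of these 8 was 10914 to 20086 CPM in the libraries labelled KO and 5064 to 7842 CPM in sgRosa, again most of it LYZ. FLT3, MPO and MEIS1 were those that fell, and LYZ, ELANE and SPI1 those that rose. ELANE averaged 646 CPM in the libraries labelled KO and 228 CPM in sgRosa (1.46 ± 0.23, limma adjusted p = 0.000456). CD33 and HOXA9 did not pass. Of 7 granulocyte markers 2 could be analysed, CSF3R and CXCR2, summing to 411 to 557 CPM in the libraries labelled KO and 168 to 299 CPM in sgRosa. Only CSF3R, itself among the receptors reported here, rose. CXCR2 averaged 34.2 CPM in the libraries labelled KO and 37.7 CPM in sgRosa and did not pass (limma adjusted p = 0.608). The NK cell list had 2 of 4 markers (229 to 252 CPM in the libraries labelled KO and 146 to 213 CPM in sgRosa) and the epithelial and fibroblast list 1 of 5 (1.07 to 2.01 CPM in the libraries labelled KO and 1.08 to 3.64 CPM in sgRosa). The part of these shifts in the receptor changes was not tested.

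Of 16 ligands of the receptors, 2 could be analysed. CSF1, the ligand of CSF1R, was at 1.01 to 2.64 CPM in the libraries labelled KO and 0.0409 to 0.187 CPM in sgRosa and rose (limma adjusted p = 8.99e-05). OSM, which signals through gp130, did not pass (0.57 ± 0.25, limma adjusted p = 0.0879). Of 5 partner chains analysed out of 11, 3 rose and none fell (median 0.78 beside -0.05 for all genes), namely IFNGR2, CRLF2 and IL27RA, the IL-27 chain that pairs with gp130 (0.78 ± 0.18, limma adjusted p = 0.00485). Of 14 other blood cytokine receptors analysed out of 23, 5 rose and none fell (median 0.40), where 20.9% of all genes rose and 20.6% fell. The largest were IL21R (1.29 ± 0.18, limma adjusted p = 0.000154), TNFRSF1B, a receptor of TNF (1.22 ± 0.17, adjusted p = 0.00015), and IL4R, shared by IL-4 and IL-13 (1.06 ± 0.16, adjusted p = 0.000344); EPOR and TGFBR2 were the others. Without sgRosa replicate 2, 5 partner chains and 9 of these other receptors rose, where 3076 of all 11408 genes did. After correction for GC content 4 and 9 rose, where 22.2% of all genes did. The corrected changes, all of which passed, were 0.40 for IL27RA, 0.38 for EPOR, 0.76 for TNFRSF1B and 0.68 for IL4R, each more than 1.5 times smaller than without the correction.

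Downstream of the receptors, 7 of 16 kinases and adaptors rose and 1 fell (median 0.22), where 20.9% of all genes rose and 20.6% fell. Among the JAK kinases, TYK2, used by the receptors of IL-10 and type I interferon, rose by 0.85 ± 0.18 (limma adjusted p = 0.00258). JAK2 (0.09 ± 0.21, adjusted p = 0.755) and JAK1 (-0.03 ± 0.19, adjusted p = 0.914) did not pass, and the sign of JAK1 differed between scalings and that of JAK2 between libraries left out. After correction for GC content all 3 passed, JAK2 at 0.60 (limma adjusted p = 0.000998), TYK2 at 0.31 (adjusted p = 0.00846) and JAK1 at 0.25 (adjusted p = 0.0423). FES, a tyrosine kinase of myeloid cells, averaged 160.4 ± 28.1 CPM in the libraries labelled KO and 81.9 ± 27.5 CPM in sgRosa (1.00 ± 0.21, adjusted p = 0.00286), and PIK3R5, a regulatory subunit of PI3K gamma, also rose (0.95 ± 0.17, adjusted p = 0.00103). Their corrected changes were 0.42 for FES and 0.60 for PIK3R5, and both passed. The gene that fell was PIK3R1, a regulatory subunit of PI3K (-0.56 ± 0.20, adjusted p = 0.0405), and it did not pass after the correction (-0.11, adjusted p = 0.289). Of 6 STAT factors 3 rose (median 0.50), where 20.9% of all genes did. STAT2, which acts below the type I interferon receptor, rose by 1.56 ± 0.16 (limma adjusted p = 1.03e-05). STAT6, which acts below IL4R, rose by 0.66 ± 0.19 (adjusted p = 0.0144) and by 0.39 after the correction, which passed. STAT5A and STAT5B, which act below FLT3 with the tandem duplication and below the GM-CSF receptor, did not pass (adjusted p = 0.259 and 0.841).

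Among negative regulators, 7 of 19 rose and 5 fell (median 0.15), where 20.9% of all genes rose and 20.6% fell. SOCS3, an inhibitor of signaling at gp130 and at the G-CSF receptor, averaged 10.4 ± 0.223 CPM in the libraries labelled KO and 2.67 ± 0.839 CPM in sgRosa (1.81 ± 0.23, limma adjusted p = 6.95e-05). SOCS1, an inhibitor of JAK kinases (1.25 ± 0.31, adjusted p = 0.00742), and the phosphatase PTPN6 (1.07 ± 0.19, adjusted p = 0.000939) also rose, though SOCS1 did not pass after correction for GC content (0.38, adjusted p = 0.147) and PTPN6 was at 0.67, which passed. Those that fell were SPRED1, PTPN2, SOCS5, SOCS2 and SOCS6, with changes of -0.95 to -0.65, and after the correction SOCS5 and SOCS6 did not pass (adjusted p = 0.347 and 0.661). Of 10 genes of receptor shedding and turnover 5 rose and none fell (median 0.33), beside the same shares of all genes. MARCHF1, a ubiquitin ligase of membrane proteins, averaged 22.0 ± 6.77 CPM in the libraries labelled KO and 1.18 ± 0.548 CPM in sgRosa (3.74 ± 0.27, adjusted p = 4.66e-07). FURIN, a protease that processes precursor proteins (1.57 ± 0.19, adjusted p = 4.34e-05), and RHBDF2, a partner of the sheddase ADAM17 (0.93 ± 0.20, adjusted p = 0.00311), rose too, as did RNF41 and HGS. After the correction FURIN was at 1.02 and RHBDF2 at 0.36, which passed, and HGS did not pass (-0.11, adjusted p = 0.450).

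Transcription factors known at receptor genes moved both ways, with 6 of 15 up and 3 down (median -0.02), where 20.9% of all genes rose and 20.6% fell. CEBPB (2.60 ± 0.26, limma adjusted p = 1.05e-05) and KLF4 (1.79 ± 0.21, adjusted p = 3.57e-05), both factors of monocytes, rose. SPI1, which encodes PU.1, averaged 379 ± 117 CPM in the libraries labelled KO and 166 ± 35.4 CPM in sgRosa (1.16 ± 0.19, adjusted p = 0.000518), and the corrected change was 0.44 (adjusted p = 0.0493). RUNX1 (-0.71 ± 0.23, adjusted p = 0.0248), MYB (-0.68 ± 0.21, adjusted p = 0.020) and MEIS1 (-0.93 ± 0.22, adjusted p = 0.0049), factors of progenitors and AML blasts, fell, and their corrected changes of -0.48, -0.30 and -0.53 passed too. HOXA9, another such factor on this list, did not pass (-0.21 ± 0.18, limma adjusted p = 0.349). RUNX1, MYB, MEIS1 and HOXA9, with SPI1 and the genes of the lists above given without being among the 3 largest changes or partners of the receptors, were named after their values were seen.

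Of 8 proteins that bind AU-rich elements, 3 rose and 3 fell (median -0.20), where 20.9% of all genes rose and 20.6% fell. Those that rose were the ZFP36 family itself: besides ZFP36L2, ZFP36 averaged 243 ± 36.5 CPM in the libraries labelled KO and 91.7 ± 22.4 CPM in sgRosa (1.42 ± 0.19, limma adjusted p = 9.84e-05) and ZFP36L1 9.37 ± 0.908 CPM in the libraries labelled KO and 0.450 ± 0.380 CPM in sgRosa (3.44 ± 0.27, adjusted p = 8.54e-07). Several genes named in these lists share exonic bases with a gene on the other strand, IL4R with AC106739.1 (339), IL21R with IL21R-AS1 (1273) and CEBPB with CEBPB-AS1 (231), so reads of such pairs may not have been told apart in counting. TIA1, HNRNPD and TIAL1 were the genes of this list that fell, with changes of -0.75 to -0.52, and after the correction TIA1 and TIAL1 did not pass (adjusted p = 0.0948 and 0.276).

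**Figure D5:**
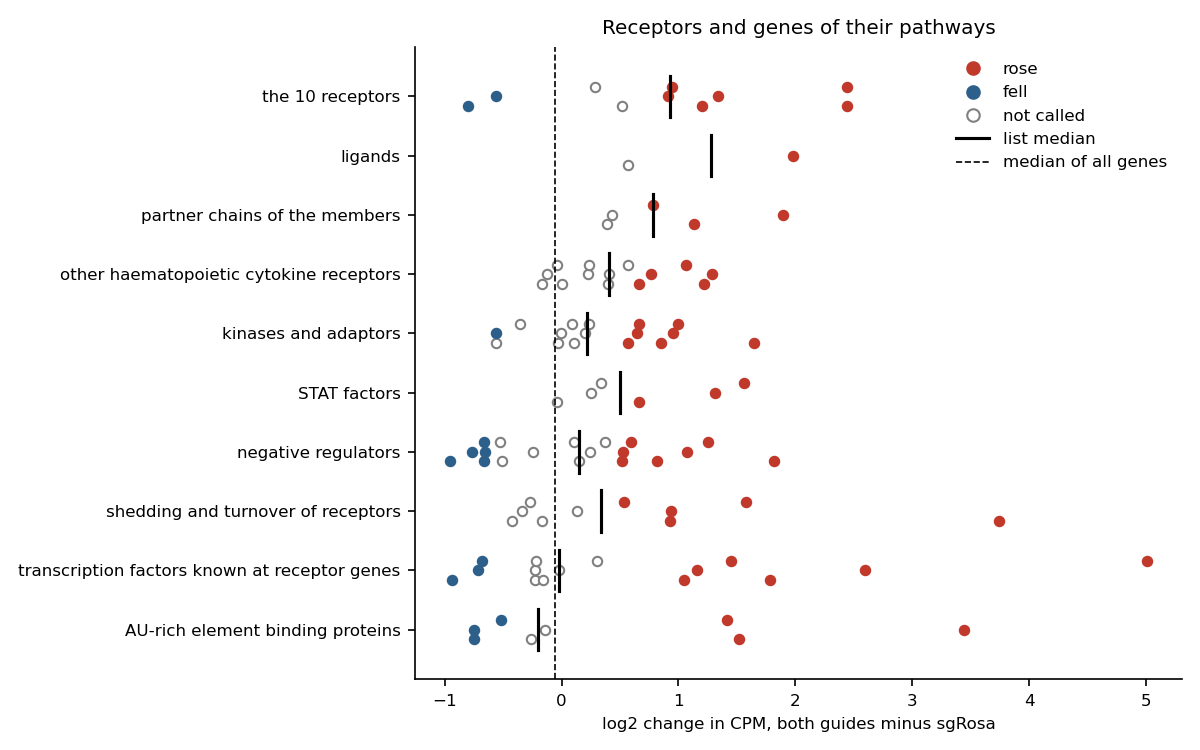
Change on the log2 scale of the 10 receptors and of each analysed gene of 9 pathway lists, both guides minus sgRosa (horizontal axis); filled points passed a limma adjusted p of 0.05, solid bars are list medians and the dashed line is the median of all genes at -0.05. The receptor median is 0.93, and no partner chain, other receptor or STAT factor fell, where 20.6% of all genes did.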

How the data were processed

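Poly(A) RNA libraries of MOLM13 cells, 4 labelled ZFP36L2 KO and 3 sgRosa, were analysed from 2 tables. In the deposited FPKM, the length is close to the full span of each gene, introns included: mean CPM over mean FPKM gave a whole length for all 11408 genes, within 5% of the GENCODE span for 10382. The tools that the submitters' processing notes name are STAR (2.5.3), HTSeq, edgeR and limma; other versions and counting settings are not given in the sources used here. The authors' deposited table of comparisons also holds log2 fold changes, p-values and group mean CPM. CPM were recovered as FPKM times length, and divided into whole reads (within 0.01) for 100% of values. The authors' scaling was kept. Of 11581 genes listed, 173 without values or symbol were left out. The columns name the guides 3 and 5, and nothing ties these to the numbers in the labels.

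Values of log2(CPM + 0.5) went into limma (3.58.1, R 4.3.3) with 3 arm means and a variance trend (4 residual degrees of freedom); p was two-sided, adjusted by Benjamini-Hochberg over 11408 genes, and called under 0.05. The contrasts were both guides minus sgRosa, each guide minus sgRosa and guide 5 minus guide 3. The fit was tested on simulated data with independent noise and no trend on GC content. That test does not cover the GC trend of these libraries. The 10 receptors and the lists were chosen with earlier results of these data known. All 10 receptors were named, with the 3 largest called changes of each list and needed partners; others are marked in the text, and some genes that this rule takes are not reported here. With limma's voom on the recovered reads, 2374 genes rose and 2418 fell with both guides. Gene positions, GC content and 3′ UTRs are from GENCODE 29 (GRCh38).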

Additional observations from a re-analysis of the deposited data

How the results depend on the processing

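The calls of FLT3, CSF1R, CSF2RA, CSF2RB, CSF3R, IL10RA and IL7R with both guides kept their direction and their side of the threshold in 22 alternatives each, with changes of -0.92 to -0.40 for FLT3, 1.81 to 2.55 for CSF1R and 2.06 to 2.51 for IL10RA. IL6ST passed in 5 of 21 alternatives and IFNGR1 in 3 of 22, and IL6R was lost in 4 of 22. Whether the replicate numbers pair the libraries could not be told. Correlations over genes of deviations from the arm means ran from -0.49 to 0.37 for same-numbered libraries. With 2 libraries per guide these deviations mirror each other, so the correlations can neither show nor exclude a pairing. With the replicate block, 2536 genes rose and 2810 fell with both guides, and 6 receptors rose and 2 fell. The block in effect leaves out sgRosa replicate 3, which has no partner.

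On log2(FPKM + 0.5), 1526 genes rose and 1339 fell with both guides, 1593 and 1166 with guide 3, and 841 and 503 with guide 5, and 19 were lower with guide 5 than with guide 3. With the replicate block and GC correction, 1493 genes fell with both guides and 1356 with guide 3; 64 were higher and 13 lower with guide 5 than with guide 3. With guide 3, 3242 genes fell after quantile normalization and 3643 rose with library weights. Receptors fallen with guide 3 numbered 2 after quantile normalization, equal sums, median of ratios, GC correction with or without the block, and library weights. With guide 5, 1833 genes fell after quantile normalization, 1368 with equal sums, 1366 after GC correction, 1540 with the block and 469 with the compared groups alone, and 2577 rose and 1870 fell with library weights. Receptors fallen with guide 5 were 2 after quantile normalization, equal sums and library weights, and 0 with the compared groups alone.

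Between guides, 4 genes were lower with 0.1 CPM added, 21 with 2 CPM added, 15 without a variance trend and 13 with voom. With a mean CPM of at least 5, 24 were higher, and with equal sums 75. Higher and lower were 113 and 39 after quantile normalization, 140 and 48 after GC correction, 95 and 56 with the block, 908 and 1366 with library weights (receptors 1 and 3), and 709 and 1141 with the compared groups alone (receptors 1 and 2).

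Leaving out 1 library at a time, genes fallen with both guides ranged from 1110 to 2951 and receptors fallen from 1 to 2. With guide 3, 1115 to 3178 genes rose and 398 to 2823 fell. With guide 5, 614 to 2238 rose and 55 to 1605 fell, with 3 to 7 receptors risen and 0 to 2 fallen. Between guides, 8 to 233 genes were higher and 1 to 204 lower, with 0 to 1 receptor lower. The sign of JAK1 turned after quantile normalization (0.054), median of ratios (0.033), GC correction (0.25; 0.23 with the block) and library weights (0.13), and ranged from -0.14 to 0.18 with 1 library left out. JAK2 was at 0.60 after GC correction (adjusted p = 0.000998), 0.56 with GC correction and the block (adjusted p = 0.0124), -0.11 with the block and -0.11 to 0.29 with 1 library left out, IL10RB at -0.22 after quantile normalization and 0.65 after GC correction (adjusted p = 0.0445), and IL6ST between guides at -0.55 to 0.14 with 1 library left out. The cause of these changes was not tested; the FPKM setting changes scale and filter together. With 4 libraries labelled KO against 3 sgRosa libraries, few replicates limit the precision, while each receptor has at least 236 reads in every library.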
